A study of Mus musculus with 6 samples.

Results

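The enzymes described here place or remove methyl groups on histones and DNA, methylate protein arginines, or remove acetyl groups from proteins. They were chosen by gene symbol: every gene named Kdm, Setd, Prmt, Dnmt, Hdac or Sirt followed by a digit, together with Tet1 to Tet3, Ezh1, Ezh2, Suv39h1, Suv39h2, Suv420h1, Ehmt1, Ehmt2, Nsd1, Dot1l and Carm1. The rule took 68 of the 24647 genes with a symbol, on 72 transcript clusters. For the 4 genes with several clusters, the one with the highest mean over the arrays was used. MOE cells are epithelial cells of the mouse oviduct, the organ that corresponds to the human fallopian tube, and 6 arrays of them were compared. One stable line carried an empty vector (pCMV-Neo, 3 arrays) and the other a plasmid with the p53 mutant R273H (3 arrays). Both grew with serum, glutamine, epithelial growth factor, insulin, transferrin, selenite, antibiotics and β-estradiol. Lines were isolated clonogenically under antibiotic selection, the labels do not say from how many clones, and the RNA came from consecutive passages. Line and plasmid therefore cannot be told apart, and p-values measure only the spread between passages. On the array the mouse Trp53 gene fell by 0.68 ± 0.10 (SE) in the p53 R273H line, from 10.06 ± 0.07 to 9.39 ± 0.10 (SD, n = 3, limma adjusted p = 0.0017); whether its probes detect the plasmid is not known from the files.

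Histone tails carry acetyl and methyl groups that set how tightly DNA is packed. Histone deacetylases (HDACs) use zinc and sirtuins use NAD to remove acetyl groups, which generally lowers transcription. SET domain enzymes add methyl groups to lysines from S-adenosylmethionine, and the Kdm enzymes take them off again. Arginine methyltransferases (PRMTs) act on histones and on splicing factors, DNMTs methylate cytosine in DNA, and TET enzymes oxidise that methyl group.

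All values are log2 signals as deposited, and a difference is p53 R273H minus empty vector. Array medians ranged from 4.51 to 4.58, and the number of arrays limits the precision. The files do not say which signals exceed background. A mean under 4.53, the median of all transcript clusters, is called dim here. Markers of the labelled tissue were mixed. Pax8 was at 10.21 and 10.48 in empty vector and p53 R273H, Krt18 at 11.02 and 11.27, while Epcam was dim at 4.05 and 4.03. Of 12 oviductal markers 9 were above 4.53 with empty vector and 11 with p53 R273H, and 3 rose and 5 fell. Among 8 fibroblast markers 4 and 5 were above 4.53. Their mean level was 4.16 to 4.41 on the empty vector arrays and 4.96 to 5.10 on the p53 R273H arrays. Of these 3 rose and 1 fell, with Dcn, a matrix proteoglycan, going from 3.32 to 8.02 and the collagen gene Col1a2 from 5.60 to 4.56. Without Dcn the mean level of the other 7 was 4.29 to 4.55 and 4.52 to 4.67. Of 7 measured leukocyte markers 3 were above 4.53 in both groups, and 2 rose and 1 fell. Cd14 rose from 9.20 to 9.62 and Cd68 fell from 8.05 to 7.32, while Csf1r was at 5.91 and 6.23. Ptprc, the pan-leukocyte antigen, rose from 3.50 to 4.10 and was dim in both groups. Of 4 mesothelial markers 1 rose and 2 fell, with Wt1 going from 7.66 to 5.73 and Upk3b from 5.43 to 6.43. Of 5 smooth muscle markers 2 rose and 1 fell, with Acta2 going from 9.89 to 11.71 and Cnn1 from 5.70 to 4.84. Of 6 endothelial markers 1 rose and 1 fell, Kdr going from 4.53 to 6.29 and the dim Tie1 from 4.38 to 4.03. The part of these cell types in the results was not tested. In a bulk sample fewer cells of a type and less RNA per cell cannot be told apart.

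Most of these enzymes did not pass the test, and those that did were lower more often than higher in the p53 R273H line. Of 68 genes 14 fell and 4 rose at an adjusted p under 0.05 (limma, Benjamini-Hochberg over all genes). Falls made up 20.6% of the enzymes against 11.7% of all genes, and rises 5.88% against 11.9%. An unadjusted p under 0.05 was found for 26 of 68, against 33.7% of all genes. Together 26.5% changed against 23.6% of all genes, so the number of changed enzymes was near the background. Among the 62 enzymes that were not dim in both groups, 22.6% fell and 6.45% rose, against 18.3% and 18.1% of all such genes, and 29% changed against 36.5%. The median difference of all 68 enzymes was 0.02, as was that of all genes. Counts for single families below are to be read beside these shares. Families are small, and none was tested as a set.

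Changes were small. No enzyme changed 2-fold, while 5.58% of all genes did. A fall of at least 1.5-fold was called for Hdac10, Kdm6a, Prmt5, Hdac8 and Hdac6, and a rise of that size for Sirt5 and Setd8. These were 5 and 2 of 68, where 6.78% and 6.58% of all genes passed the same rules. The 3 arrays of each group did not overlap for 29 enzymes (42.6%), 14 of them higher and 15 lower in p53 R273H, against 38.2% of all genes (20% higher and 18.1% lower). Among genes not dim in both groups, this held for 28 of 62 enzymes (45.2%) against 54.5% of all such genes. The largest fall was 0.98 (Hdac10) and the largest rise 0.83 (Sirt5). An exact permutation test of 1 gene with 3 arrays against 3 cannot give a p under 0.1.

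**Figure D1:**
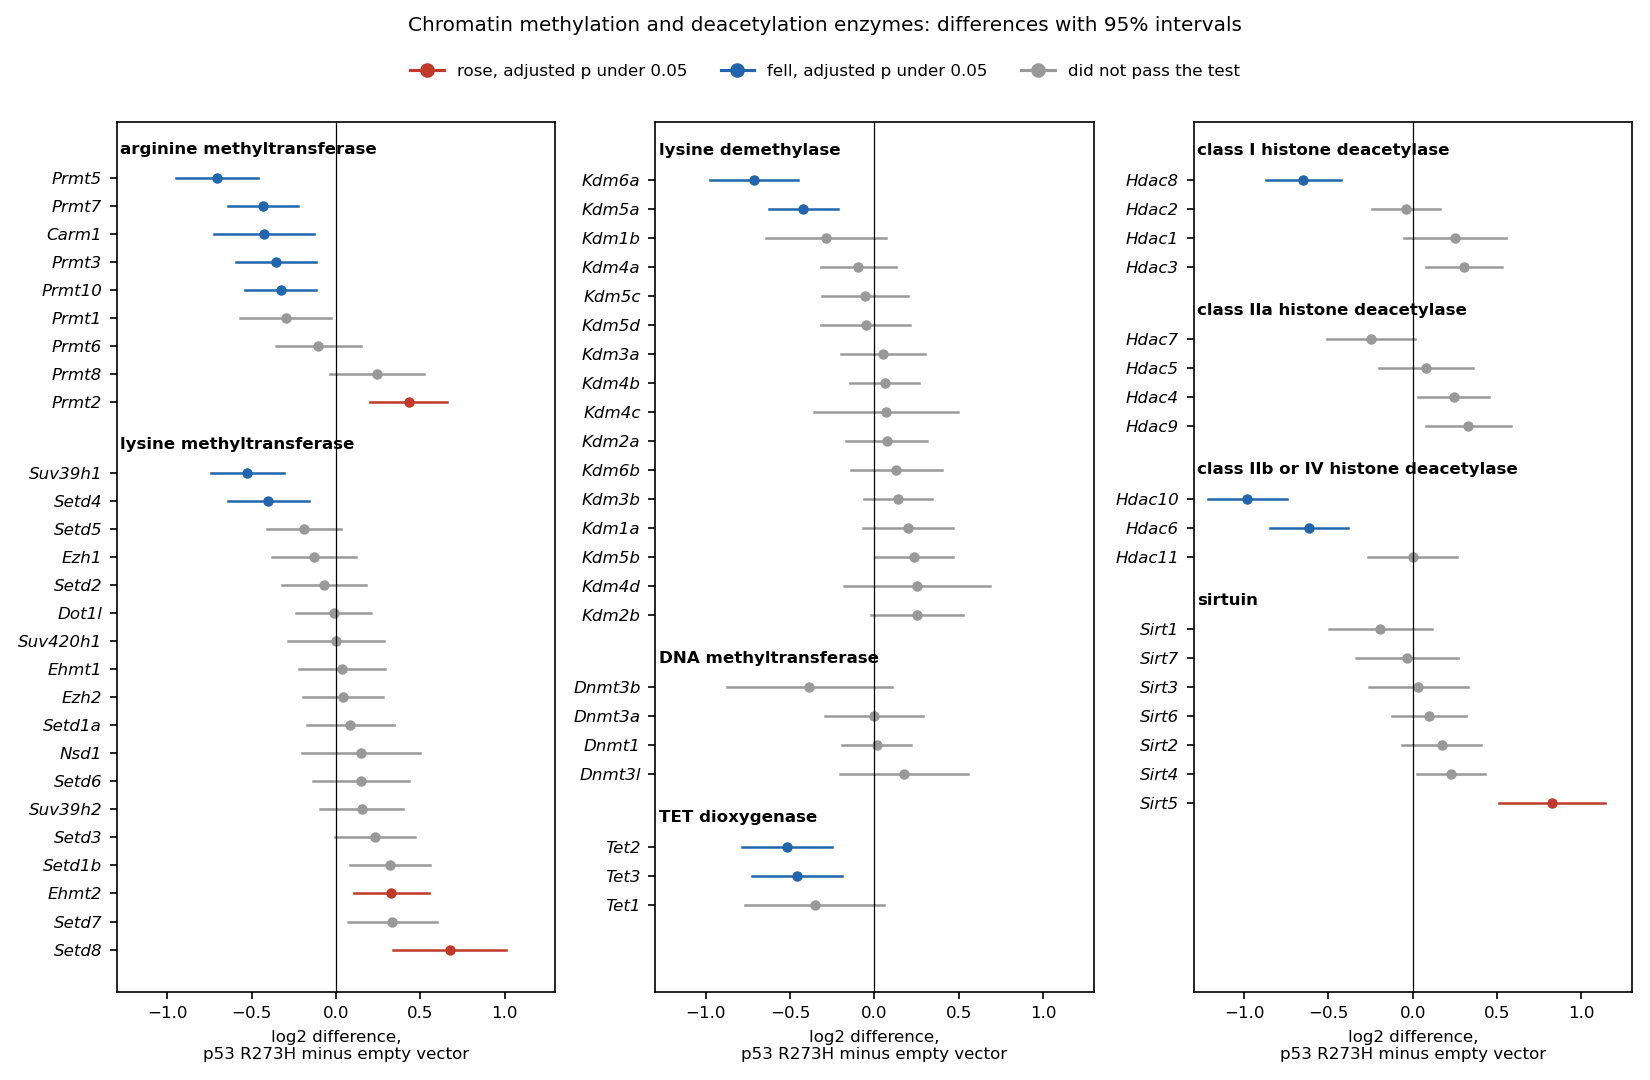
Log2 difference of each of the 68 enzymes (p53 R273H minus empty vector, 3 arrays each) with the 95% interval of the limma fit, ordered by size within each family. Points in blue fell and points in red rose at an adjusted p under 0.05, and most points of the lysine demethylases and lysine methyltransferases are grey and lie near 0.

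RefSeq (GRCm38.p6) promoter sequences were matched for 57 of the 68 enzymes, Hdac10 not among them. The 150 bases before the annotated start were searched on both strands for CCAAT (the NF-Y box), TTTGAA (the cell cycle element CHR), CCGGAAGT (ETS factors), TGACGTCA (the cyclic AMP element), AAGATGGC (YY1) and the palindromic NRF1 site, none of which contains another. Prmt5, Hdac6 and Sirt5 are shown because they changed at least 1.5-fold, in both directions, and hold the CCAAT box. Setd8 meets the same description but has 3 annotated promoters, each with the CCAAT letters, and is not printed. Matches are in capitals, each sequence runs from 5′ to 3′ along its gene's strand, and a box read on the other strand appears as ATTGG.
Prmt5 (chr14:54517471-54517620, minus strand): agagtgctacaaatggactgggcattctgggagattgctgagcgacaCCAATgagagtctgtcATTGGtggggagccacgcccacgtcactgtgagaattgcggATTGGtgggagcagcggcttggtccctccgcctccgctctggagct
Hdac6 (chrX:7947890-7948039, minus strand): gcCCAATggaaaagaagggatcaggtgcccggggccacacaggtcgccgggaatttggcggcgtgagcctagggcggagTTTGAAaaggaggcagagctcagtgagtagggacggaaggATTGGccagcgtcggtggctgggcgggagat
Sirt5 (chr13:43365385-43365534, plus strand): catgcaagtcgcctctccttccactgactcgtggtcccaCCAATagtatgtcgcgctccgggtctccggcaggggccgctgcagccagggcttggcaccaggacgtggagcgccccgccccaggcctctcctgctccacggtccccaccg

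The CCAAT letters were found in the promoters of 20 of the 57 enzymes (35.1%), against 27.7% of 27025 genes in the same table. Of 11 fallen enzymes with a promoter 6 held them, and of 4 risen ones 2 did, so risen and fallen genes both carried them. TTTGAA was in 5 of 57 (8.77%) against 10.5% of all genes, with Hdac6 and Hdac8 among the fallen. CCGGAAGT was in 3 (5.26%) and TGACGTCA in 2 (3.51%), against 2.72% and 1.58% of all genes. The NRF1 site was in 1 (1.75%) and AAGATGGC in 0, against 0.733% and 1.02%. A match describes these letters and is not a binding site.

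Of the 9 arginine methyltransferase genes 5 fell, 1 rose and 3 did not pass, where 11.7% of all genes fell and 11.9% rose. Their median difference was -0.33. Prmt5, which makes symmetric dimethylarginine on histones and spliceosome proteins, read 10.43, 10.53 and 10.63 with empty vector and 9.95, 9.70 and 9.83 with p53 R273H (transcript cluster 17306362, chromosome 14). Every empty vector array was above every p53 R273H array. Prmt5 was 1.63-fold lower, with a difference of -0.70 ± 0.11 (SE) and a limma adjusted p of 0.00197. Prmt7, which makes monomethylarginine, read 7.96, 8.06 and 7.98 with empty vector and 7.53, 7.61 and 7.56 with p53 R273H, again without overlap. It fell by 0.43 ± 0.09 (limma adjusted p = 0.00902). Calls for Prmt5 and Prmt7 held in each of the 15 alternative analyses.

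The other falls of this family were less firm. Carm1, a coactivator of nuclear receptors that methylates histone H3, fell by 0.43 ± 0.13 (limma adjusted p = 0.0461). Prmt3, which methylates a ribosomal protein, fell by 0.35 ± 0.10 (limma adjusted p = 0.041), and Prmt10 fell by 0.33 ± 0.09 (limma adjusted p = 0.0334). The groups did not overlap for any of these 3 genes, but each kept its call in only 6 of 15 alternatives. Carm1 was lost without empty vector replicate 2 or 3 (limma adjusted p = 0.133 and 0.143) and without p53 R273H replicate 1, 2 or 3 (0.0663, 0.0747 and 0.13). Prmt3 was lost without empty vector replicate 1, 2 or 3 (0.105, 0.0544 and 0.131) and without p53 R273H replicate 1 or 2 (0.113 and 0.0969). Prmt10 was lost without any 1 array, with limma adjusted p-values between 0.0535 and 0.107.

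Prmt2, which acts as a coactivator of nuclear receptors, went the other way. It read 7.49, 7.58 and 7.58 with empty vector and 8.07, 7.85 and 8.02 with p53 R273H. It rose by 0.43 ± 0.10 (limma adjusted p = 0.0153), and the call was lost without empty vector replicate 1 (limma adjusted p = 0.0563). Prmt1, which makes most asymmetric dimethylarginine in mammalian cells, differed by -0.30 ± 0.12 (limma adjusted p = 0.111), and its 95% interval ran from -0.57 to -0.03. Prmt6 differed by -0.11 ± 0.11, and Prmt8, known from the brain, was dim at 3.87 and 4.11.

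**Figure D2:**
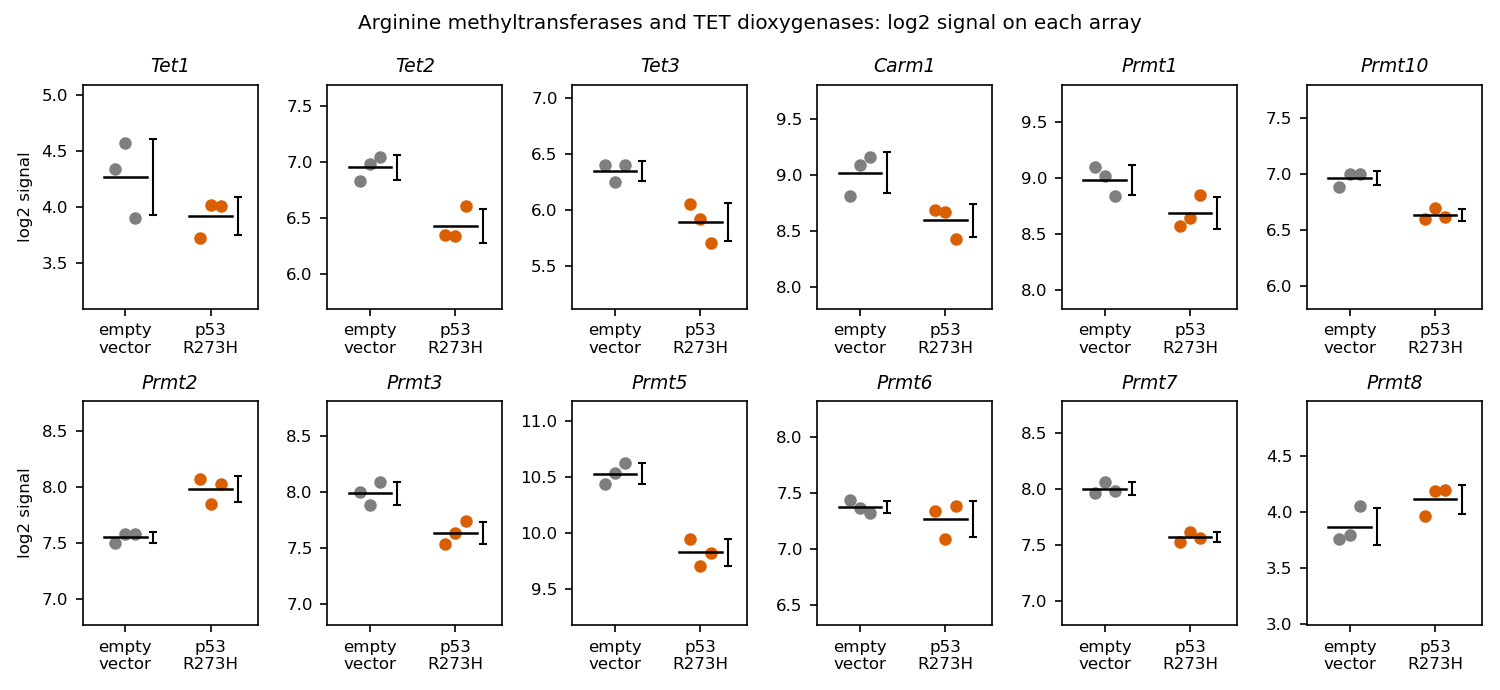
Log2 signal of the 3 TET genes and the 9 arginine methyltransferase genes on each array, with a bar at the mean and a whisker of 1 SD to its right. Each panel spans the same range on the log2 scale, and among the arginine methyltransferases that passed the test only Prmt2 lies higher in p53 R273H.

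All 3 TET dioxygenases had a negative difference, and Tet2 and Tet3 passed the test. Tet2, often mutated in blood cancers, read 6.82, 6.98 and 7.05 with empty vector and 6.35, 6.33 and 6.61 with p53 R273H (transcript cluster 17410492, chromosome 3). The lowest empty vector array was above the highest p53 R273H array. It fell by 0.52 ± 0.11 (limma adjusted p = 0.0131), and by 0.47 without empty vector replicate 3 (limma adjusted p = 0.0505). Tet3, the enzyme of the zygote, fell by 0.46 ± 0.12 from 6.35 ± 0.09 to 5.89 ± 0.17 (SD, n = 3, limma adjusted p = 0.0237). Its call was lost without empty vector replicate 1 or 3 (limma adjusted p = 0.0767 and 0.0781) and without p53 R273H replicate 2 or 3 (0.0568 and 0.0646). Tet1, known from embryonic stem cells, was dim at 4.27 and 3.92, with a difference of -0.35 ± 0.18 (limma adjusted p = 0.214). It passed the test without empty vector replicate 3 (limma adjusted p = 0.0417).

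No DNA methyltransferase passed the test. The difference of Dnmt1, which copies methylation to the new strand after replication, was 0.01 ± 0.09, with a 95% interval from -0.19 to 0.22. Dnmt3a, which sets new methylation, was at 6.19 in both groups, with an interval from -0.29 to 0.29. Dnmt3b, the other enzyme of new methylation, read 5.21, 5.11 and 4.83 with empty vector and 4.36, 4.50 and 5.15 with p53 R273H. Its groups overlapped through p53 R273H replicate 3. The difference was -0.39 ± 0.21 (limma adjusted p = 0.253), and -0.63 without that array (limma adjusted p = 0.0243). Dnmt3l, a cofactor without activity of its own, was dim in both groups.

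Among the 11 zinc-dependent histone deacetylases 3 fell, 0 rose and 8 did not pass. Of the 8, Hdac3, Hdac4 and Hdac9 rose in 4, 2 and 3 of the alternative analyses. Hdac10, a class IIb enzyme that deacetylates polyamines, showed the largest change of all 68 enzymes. It read 7.31, 7.42 and 7.54 with empty vector and 6.53, 6.41 and 6.39 with p53 R273H (transcript cluster 17320279, chromosome 15). The groups were separated by more than the whole range within either of them. Hdac10 was 1.97-fold lower, with a difference of -0.98 ± 0.10 and a limma adjusted p of 0.000279.

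Hdac6, the tubulin deacetylase of the cytoplasm and also class IIb, read 10.40, 10.50 and 10.42 with empty vector and 9.90, 9.89 and 9.69 with p53 R273H (transcript cluster 17539932, chromosome X). No p53 R273H array reached an empty vector array. Hdac6 was 1.53-fold lower, at -0.61 ± 0.10 (limma adjusted p = 0.00295). Hdac11, the only class IV enzyme, was at 5.69 in both groups, with a 95% interval of the difference from -0.26 to 0.26.

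Of the class I deacetylases Hdac8 alone passed the test. Hdac8, which deacetylates the cohesin subunit Smc3, read 6.12, 5.97 and 6.02 with empty vector and 5.32, 5.48 and 5.37 with p53 R273H (transcript cluster 17543675, chromosome X). Its groups were well apart, and Hdac8 was 1.57-fold lower at -0.65 ± 0.10 (limma adjusted p = 0.00184). Hdac2, of the Sin3, NuRD and CoREST complexes, differed by -0.04 ± 0.09, and its partner Hdac1 by 0.25 ± 0.13 (limma adjusted p = 0.811 and 0.23). Hdac3, also of class I, differed by 0.30 ± 0.10 with no overlap (limma adjusted p = 0.058), and passed once genes under the 30th or 50th percentile were left out.

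The class IIa deacetylases, signal-dependent repressors of MEF2 factors, did not pass the test. Hdac9 had the largest difference of them and was dim, with 4.02, 4.14 and 3.99 against 4.49, 4.43 and 4.22. Its groups did not overlap, and the difference was 0.33 ± 0.11 (limma adjusted p = 0.0641, and 0.0375 without p53 R273H replicate 3). The difference was 0.24 ± 0.09 for Hdac4, 0.08 ± 0.12 for Hdac5 and -0.25 ± 0.11 for Hdac7.

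**Figure D3:**
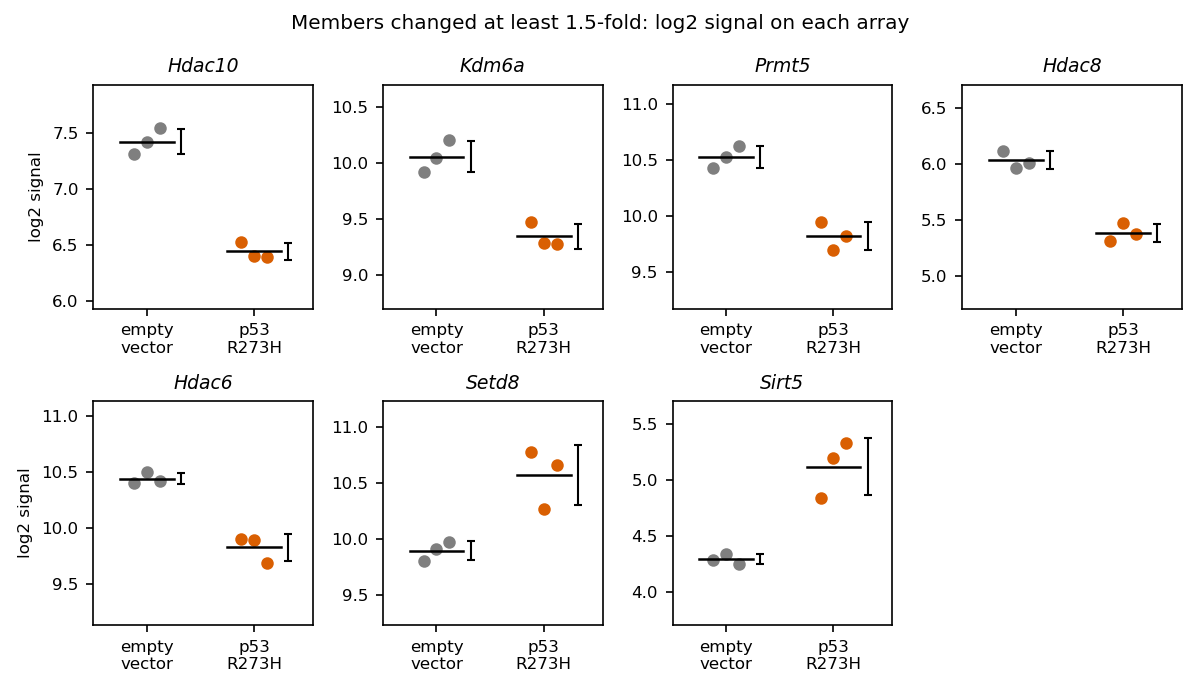
Log2 signal on each array of the 7 enzymes that changed at least 1.5-fold at an adjusted p under 0.05, with a bar at the mean of the 3 arrays and a whisker of 1 SD. Each panel spans the same range on the log2 scale, and no panel shows overlap between the groups.

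Sirt5 was the sirtuin that changed. It removes succinyl and malonyl groups from mitochondrial proteins. Its signal was 4.29, 4.34 and 4.25 with empty vector and 4.84, 5.20 and 5.33 with p53 R273H (transcript cluster 17286870, chromosome 13). The empty vector arrays were all dim and the p53 R273H arrays all above 4.53, and p53 R273H varied more, with an SD of 0.25 against 0.04. Sirt5 was 1.77-fold higher, at 0.83 ± 0.14 (limma adjusted p = 0.00309). Since its lower group is dim, the fold is not exact.

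The other 6 sirtuins did not pass. Sirt1, which deacetylates p53 and histones, differed by -0.19 ± 0.13, with an interval from -0.50 to 0.11. Sirt2, the cytoplasmic enzyme, differed by 0.17 ± 0.10, and the mitochondrial Sirt3 and Sirt4 by 0.03 ± 0.13 and 0.22 ± 0.09. Sirt7, the nucleolar enzyme, differed by -0.03 ± 0.13. For Sirt6, which deacetylates histone H3 at telomeres, the transcript clusters disagreed. The cluster with the higher mean, 17243448, read 8.35, 8.40 and 8.46 against 8.52, 8.40 and 8.58, a difference of 0.10 ± 0.09 (limma adjusted p = 0.549). Cluster 17243432 read 7.70, 7.77 and 7.52 with empty vector and 8.49, 8.31 and 8.25 with p53 R273H, without overlap. Tested among all transcript clusters it rose by 0.69 ± 0.12 (limma adjusted p = 0.0099). What each cluster detects is not given in the files.

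The 18 genes grouped here as lysine methyltransferases, an activity not checked for each gene, were split, with 2 risen, 2 fallen and 14 not called. Setd8 (Kmt5a in RefSeq), which sets the single methyl group of H4K20 and acts in the cell cycle, read 9.81, 9.91 and 9.97 with empty vector and 10.78, 10.26 and 10.66 with p53 R273H (transcript cluster 17442507, chromosome 5). All p53 R273H arrays were higher, replicate 2 by the least. Setd8 was 1.60-fold higher, at 0.67 ± 0.14 (limma adjusted p = 0.0111, and 0.065 without moderation of the variance). Suv420h1, which adds further methyl groups to the same residue, was at 7.37 in both groups.

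Suv39h1 fell and Ehmt2 rose among the enzymes of the heterochromatin mark H3K9. Suv39h1, which trimethylates it in pericentromeric heterochromatin, fell by 0.53 ± 0.09 from 8.41 ± 0.08 to 7.88 ± 0.06 (SD, n = 3, limma adjusted p = 0.00463). Its second, lower cluster had a difference of -0.23 ± 0.15 (limma adjusted p = 0.403 among all clusters). The related Suv39h2 differed by 0.15 ± 0.11. Ehmt2 (G9a), which dimethylates the residue in euchromatin, rose by 0.33 ± 0.09 (limma adjusted p = 0.0398), while its partner Ehmt1 differed by 0.04 ± 0.11. The groups did not overlap for Ehmt2, but the call was lost on leaving out any 1 array, with limma adjusted p-values between 0.0508 and 0.128. Setdb1 and Setdb2, H3K9 methyltransferases outside the 68, fell by 0.52 ± 0.11 and 0.52 ± 0.10 (limma adjusted p = 0.0103 and 0.00564). Both calls held in all 15 alternatives, and both genes were named after their values were seen.

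Setd4 fell by 0.40 ± 0.10 (limma adjusted p = 0.0254), and this was lost without empty vector replicate 1 or 3 (0.0789 and 0.0866) and without p53 R273H replicate 1 or 3 (0.063 and 0.0768), all limma adjusted p-values. Ezh2, the catalytic subunit of Polycomb repressive complex 2 and often high in tumours, did not differ beyond its spread, at 0.04 ± 0.10 with an interval from -0.20 to 0.28. Its homologue Ezh1 differed by -0.13 ± 0.11. Of the enzymes of active genes, Setd2 (H3K36) differed by -0.07 ± 0.11, Dot1l (H3K79) by -0.01 ± 0.10 and Nsd1 (H3K36) by 0.15 ± 0.15. For Setd1a and Setd1b, the H3K4 enzymes, the differences were 0.09 ± 0.11 and 0.32 ± 0.10. Setd1b lies on chromosome 5 and had a limma adjusted p of 0.0604. Setd7 had 0.33 ± 0.11 (limma adjusted p = 0.0726), and Setd3, Setd5 and Setd6 lay between -0.19 and 0.23.

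Of 16 lysine demethylases 2 fell, 0 rose and 14 did not pass. Kdm6a (UTX), which removes methyl groups from H3K27 and so opposes Ezh2, read 9.92, 10.04 and 10.20 with empty vector and 9.47, 9.28 and 9.27 with p53 R273H (transcript cluster 17533498, chromosome X). Its groups did not overlap. Kdm6a was 1.64-fold lower, at -0.71 ± 0.11 (limma adjusted p = 0.00248). Kdm6b, the other enzyme for this mark, had a difference of 0.13 ± 0.12 and a second, lower cluster at -0.13 ± 0.13.

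Kdm5a, which removes methyl groups from H3K4, was tightly spaced, with 7.94, 7.80 and 7.89 against 7.45, 7.46 and 7.45. It fell by 0.42 ± 0.09 (limma adjusted p = 0.00995). Its relatives Kdm5b and Kdm5c differed by 0.24 ± 0.10 and -0.06 ± 0.11, and the Y-linked Kdm5d was dim at 3.37 and 3.32. Kdm1a (LSD1), the demethylase of the CoREST complex, differed by 0.20 ± 0.11 and Kdm1b by -0.29 ± 0.15. Of the rest, Kdm2a, Kdm2b, Kdm3a, Kdm3b, Kdm4a, Kdm4b, Kdm4c and the dim Kdm4d lay between -0.09 and 0.25.

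Calls for Hdac10, Hdac8, Hdac6, Prmt5, Prmt7, Kdm6a, Kdm5a and Suv39h1 held in all 15 alternatives, and that for Sirt5 in the 14 that tested it. These are 9 of the 18 changed enzymes. The remaining 9 lost their call in at least 1 alternative, without changing direction.

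Several of the larger changes lay on chromosomes whose genes shifted as a whole. Chromosome X held 5 of the enzymes, of which Hdac6, Hdac8, Kdm6a and Suv39h1 fell. On this chromosome 41% of 461 expressed genes fell and 4.99% rose, with a median difference of -0.30, where expressed means not dim in at least 1 group. Kdm5c, the fifth, differed by -0.06 ± 0.11. Xist, the RNA that coats an inactive X chromosome, read 10.75, 10.75 and 10.74 with empty vector and 9.51, 9.44 and 9.52 with p53 R273H. It fell by 1.26 ± 0.08 (limma adjusted p = 3.27e-05).

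Chromosome 15 had a median of -0.40 and carries Hdac10 and Hdac7, and chromosome 14 had a median of -0.28 and carries Prmt5. On chromosome 5, where 57% of 933 expressed genes rose and the median was 0.46, lie Setd8, Setd1b, Kdm2b and Sirt4. Relative to the median of its chromosome, Setd8 was at 0.21, Hdac10 at -0.58, Prmt5 at -0.43, Kdm6a at -0.41, Hdac8 at -0.35, Hdac6 at -0.31 and Suv39h1 at -0.23. Setd1b, Kdm2b and Sirt4 lay below the chromosome 5 median by this measure, at -0.14, -0.21 and -0.24. All 18 changed enzymes kept their sign after this subtraction, but this is no test of the chromosome's part. They had been picked for their differences, and only 7 of them lie on chromosomes 5, 14, 15 and X. Outside chromosomes 5, 14, 15 and X, 8 of 56 enzymes fell and 3 rose (14.3% and 5.36%), where 16.1% and 17.2% of the expressed genes did. These enzyme shares are of all 56, of which 50 were expressed, including each of the 8 and 3. Among expressed enzymes there, 8 of 50 fell and 3 of 50 rose, beside the same 16.1% and 17.2%. The falls were thus near the share of expressed genes, and the rises were fewer. On chromosomes 5, 14, 15 and X all 12 enzymes were expressed. Of these 6 fell and 1 rose, where 30.2% and 24.5% of the expressed genes did. The part of the chromosome in these changes was not tested.

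**Figure D4:**
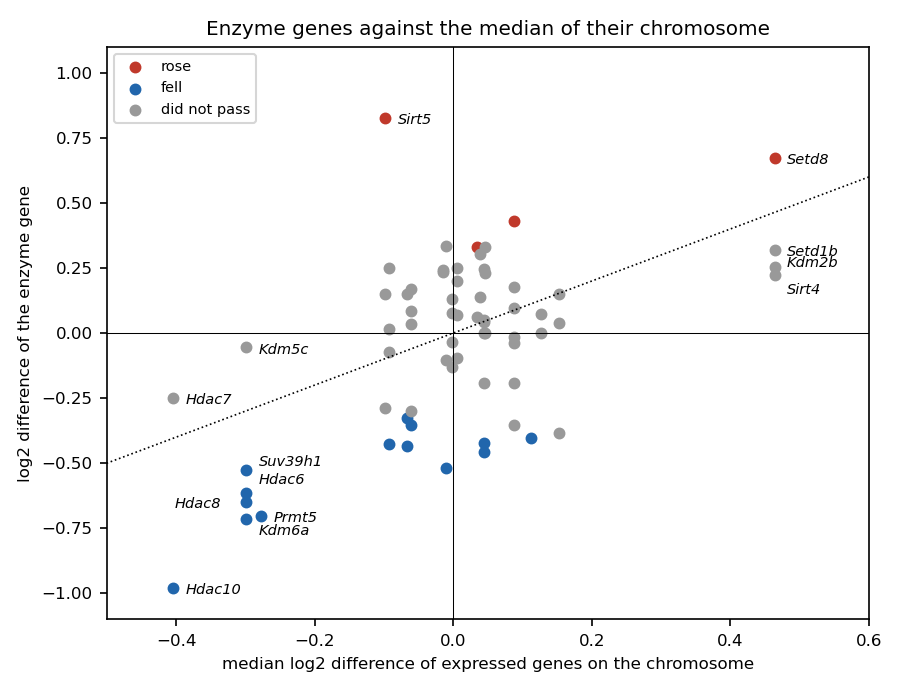
Log2 difference of each enzyme gene (vertical axis) against the median log2 difference of the expressed genes on its chromosome (horizontal axis), with a dotted line where both are equal and without the Y chromosome. Hdac10 and the 4 fallen X-linked genes lie below the line at the left, and Setd8 lies above it at the right, where 3 other chromosome 5 genes lie below it.

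Related chromatin genes, from 10 lists with 184 measured genes outside the 68, were set beside the enzymes. Of these 39 rose and 31 fell, which is 21.2% and 16.8% against 11.9% and 11.7% of all genes, with a median of 0.03. Of the 178 that were not dim in both groups 38 rose and 31 fell, which is 21.3% and 17.4% against 18.1% and 18.3% of all such genes, so the counts were near that background. Counts for single lists below are to be read beside these shares, and no list was tested as a set. The 3 largest called changes of each list, 30 genes in all, had limma adjusted p-values between 6.29e-05 and 0.0206. Of these 30 genes 26 kept their call in every alternative.

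Of 25 HDAC corepressor genes 5 rose and 2 fell, with a median of 0.11. Mta3, a NuRD subunit, rose by 1.00 ± 0.09, and the Sin3 subunit Suds3, on chromosome 5, by 0.93 ± 0.10. Of 14 acetyltransferase genes, which oppose the deacetylases, 4 rose and 1 fell, with a median of -0.04 and 8 of 14 below 0. Crebbp rose by 0.65 ± 0.09, Kat2b by 0.56 ± 0.09 and Hat1 by 0.56 ± 0.09.

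Partners of the methyltransferases were mixed. Of 27 Polycomb genes 4 rose and 5 fell. The accessory subunit Phf1 rose by 1.35 ± 0.17 and Phf19 by 0.58 ± 0.13, while Pcgf6 fell by 0.66 ± 0.10. Eed, Aebp2 and Jarid2, which also act with Ezh2, fell by 0.42 ± 0.10, 0.43 ± 0.10 and 0.40 ± 0.09. Their limma adjusted p-values were 0.0199, 0.0201 and 0.0137, and they were named after their values were seen. Calls held in 12, 12 and 14 of 15 alternatives. Ezh2 itself did not pass the test. Of 14 genes for MLL proteins and COMPASS partners, not all of them methyltransferases themselves, 3 rose and 1 fell. The 3 that rose, Mll5 (0.99 ± 0.10), Mll3 (0.74 ± 0.09) and Paxip1 (0.64 ± 0.09), all lie on chromosome 5. Among 22 other SET and PRDM genes 3 rose and 4 fell, with rises of 1.05 ± 0.21 for Prdm9, the methyltransferase of meiosis, 0.75 ± 0.10 for Whsc1 on chromosome 5 and 0.58 ± 0.13 for Mecom. Of 13 other JmjC genes 5 rose and 0 fell, where 11.9% and 11.7% of all genes did. The largest rises were Jmjd7 (0.79 ± 0.13), Jmjd4 (0.62 ± 0.09) and Jmjd1c (0.42 ± 0.10). Calls were lost for Phf19 without empty vector replicate 1 or 3 (limma adjusted p = 0.0511 and 0.0509) and for Mecom without empty vector replicate 1 or 2 (0.055 and 0.0544). That for Jmjd1c was lost without empty vector replicate 1 or 3 (limma adjusted p = 0.0557 and 0.0754) and without p53 R273H replicate 2 or 3 (0.069 and 0.0643). Without moderation of the variance the limma adjusted p of Prdm9 was 0.0719.

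Of 10 heterochromatin genes 5 fell and 0 rose, with a median of -0.21. Among all genes not dim in both groups 18.3% fell and 18.1% rose. Atrx, an X-linked remodeller, fell by 0.69 ± 0.09, Morc2a fell by 0.64 ± 0.10 and Trim28, which recruits Setdb1, fell by 0.49 ± 0.10. The other 2 falls were less firm, Cbx5 keeping its call in 8 and Smchd1 in 10 of 15 alternatives. Of 17 SWI/SNF genes 7 fell and 1 rose, beside the same 18.3% and 18.1%, with a median of -0.32. The subunits Arid2 on chromosome 15 and Pbrm1 on chromosome 14 each fell by 0.72 ± 0.09, and the ATPase Smarca2 rose by 1.37 ± 0.12. Of the other falls, Smarce1 kept its call in all 15 alternatives, but Smarcc1 in 6, Brd7 in 7, Phf10 in 8 and Actl6a in 9, with losses on leaving out arrays of either group. Of 18 readers and cofactors of DNA methylation 6 rose and 2 fell. Gadd45b, a stress gene linked to demethylation, fell by 1.35 ± 0.10, Uhrf2 rose by 0.72 ± 0.09 and the X-linked Zbtb33 fell by 0.64 ± 0.09.

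Genes that supply or use the cofactors of these enzymes held large changes. Of 24 genes 8 rose and 4 fell. Cd38, which consumes the NAD that sirtuins need, rose by 1.74 ± 0.15 from a dim 4.51 (chromosome 5). Idh1, the cytosolic source of the 2-oxoglutarate used by TET and JmjC enzymes, rose by 1.49 ± 0.14, and Nmnat2, which makes NAD, rose by 1.23 ± 0.17. Others of the list went down: Idh2, the mitochondrial counterpart of Idh1, fell by 1.06 and the NAD consumer Parp1 fell by 0.76, both named after their values were seen. Of 10 proliferation genes Rrm2 rose by 1.06 ± 0.09 and the other 9 did not pass, with Mki67 at -0.01 ± 0.09.

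**Figure D5:**
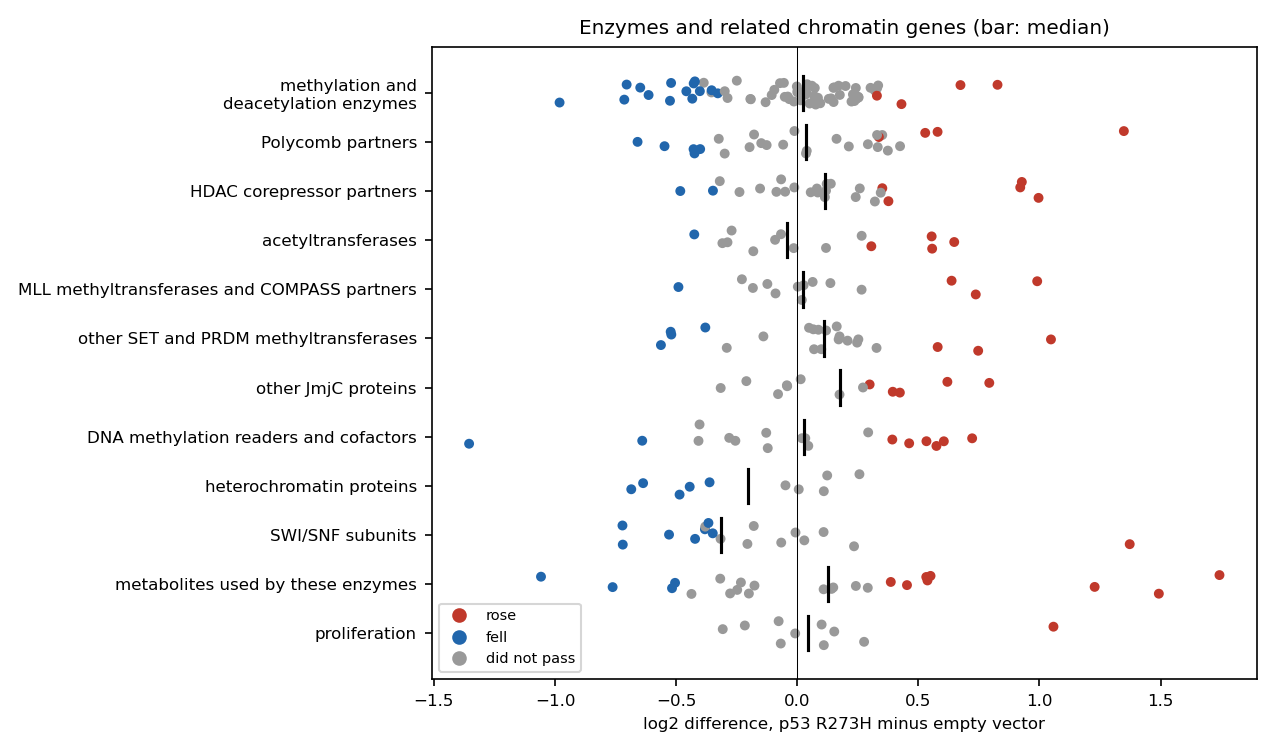
Log2 difference (p53 R273H minus empty vector) of each gene in the enzyme set and in 11 lists of related and proliferation genes, with a black bar at each median. Points in red rose, points in blue fell and grey points did not pass the test, and the heterochromatin and SWI/SNF lists have their medians left of 0.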

How the data were processed

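Each of the 6 arrays has a log2 value for 41345 transcript clusters in the authors' deposited table; per the labels' protocols, RNA was labelled with Affymetrix's WT PLUS kit. No source used here states the background correction or normalization. The scale was read from the table itself, where log2 of its ratio column equals the difference of the group means to within 6.64e-05. The authors' deposited table also holds a p-value, a step-up p-value, a ratio and a signed fold (a score) per cluster, per the file headers. Its step-up p-value was under 0.05 for 14 of the 72 enzyme clusters, among them Sirt4 and the unused Sirt6 cluster. Of the 18 changed enzymes, Tet2, Tet3, Carm1, Prmt3, Setd4 and Setd8 were not under 0.05. Their authors' step-up p-values ran from 0.0635 to 0.155. Symbols came from that table, and 26 that had turned into dates or numbers were restored from its gene assignment. Chromosomes came from RefSeq (GRCm38.p6) for 23634 of 24647 genes.

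A limma model (version 3.58.1, R 4.3.3, lmFit and eBayes, no covariates, two-sided) was fitted over 24647 genes, with Benjamini-Hochberg adjustment and a threshold of 0.05, and was tested on simulated data. By rule, all array values are given for enzymes that passed with at least 1.5-fold and no overlap or had the largest difference of their family, and the 3 largest called changes are named from each related list, except 1 that is not reported here. Values of other enzymes, markers and related genes were added after they were seen. The enzymes and lists were chosen with earlier results of these data known. Of 188 related entries 4 were not matched to a symbol. Alternatives changed the normalization, the filter on dim genes (30th and 50th percentiles), the handling of several clusters, the variance model and the pairing, and left out each array.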

Additional observations from a re-analysis of the deposited data

Results flagged for a closer look

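A second transcript cluster of Sirt6 (17243432), not used in the comparisons because its mean was lower, was higher in p53 R273H than in the empty vector arrays by 0.69 on the log2 scale. With the mean of both clusters Sirt6 rose, with a limma adjusted p of 0.0163. Groups of 3 arrays are too small for a test of single outlying arrays.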

How the results depend on the processing

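Same-numbered arrays did not deviate together, with correlations across genes of -0.07, 0.01 and 0.00 for replicates 1, 2 and 3, so the numbers were not taken to pair the arrays. With the replicate block 3 enzymes rose and 10 fell, in place of 4 and 14, the lost calls being Carm1, Prmt3, Prmt10, Setd4 and Ehmt2. With it 2502 of all genes rose and 2441 fell, in place of 2938 and 2889, and 32 and 25 of the related chromatin genes, in place of 39 and 31. The number of risen enzymes was 7 with array medians subtracted, 8 and 9 with genes under the 30th and 50th percentiles left out, and 9 with a trended and robust variance, and Hdac3 and Setd1b were gained in each of these 4. With every transcript cluster tested 9 enzymes fell, and without genes under the 50th percentile 48 related genes fell. Leaving out 1 array at a time gave 2 to 4 risen and 9 to 11 fallen enzymes, with 2 risen without empty vector replicate 1 and 9 fallen without empty vector replicate 3. Lower calls outnumbered higher ones among the enzymes in each alternative. Each of the 18 changed enzymes kept its direction in its alternatives, and 52 of 269 such values lost the call. The sign of enzymes that did not pass, and of Mki67, changed in 41 cases over 19 genes, each with a limma adjusted p of at least 0.599, so their direction is not settled. With array medians subtracted Dnmt3a was at 0.0361, Dot1l at 0.024, Sirt7 at 0.0047 and Mki67 at 0.0293. With quantile normalization Dnmt3a was at 0.0696 and Suv420h1 at -0.0037, and with the mean over clusters Hdac11 was at -0.0989 and Kdm6b at -0.0015. Leaving out 1 array gave ranges crossing 0 for Dnmt3a (-0.123 to 0.0957), Dnmt1 (-0.0097 to 0.0461), Hdac5 (-0.0318 to 0.142), Hdac11 (-0.075 to 0.0698), Kdm5c (-0.113 to 0.0353), Kdm5d (-0.155 to 0.0204), Kdm3a (-0.0084 to 0.114), Kdm4c (-0.106 to 0.28), Kdm2a (-0.0015 to 0.125), Setd2 (-0.155 to 0.009), Dot1l (-0.0782 to 0.0233), Suv420h1 (-0.0876 to 0.0977), Ehmt1 (-0.047 to 0.12), Ezh2 (-0.0244 to 0.0908), Nsd1 (-0.0149 to 0.281), Sirt7 (-0.142 to 0.0786), Sirt3 (-0.0444 to 0.14) and Mki67 (-0.0548 to 0.0171). The cause of these shifts was not tested. The arrays give no measure of background, so changes of dim genes such as Tet1 and Sirt5 are the least certain in size.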
